A study of Mus musculus with 16 samples.

Results

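The 36 genes described here encode the machinery that licenses origins, opens and copies DNA, supplies nucleotides and drives entry into S phase. They were taken by symbol from a fixed list, and each symbol was looked up in the deposited gene tables, where all 36 were found among 30819 genes. The RNA came from sorted macrophages and monocytes of MN/MCA1 tumours, a transplantable mouse sarcoma, taken from C57BL/6J mice 21 days after tumour cells were injected. Macrophages (CD45+, CD11b+, F4/80+, Ly6C-) and monocytes (CD45+, CD11b+, Ly6C+, F4/80-) were both negative for Ly6G and CD11c. The donors were wild-type mice (mice 1 to 4) and C3 knockout mice (mice 6 to 9) for the gene of complement component C3, and the same tumour line was injected in both. Each mouse gave 1 macrophage and 1 monocyte library, so there were 16 libraries in 4 groups of 4. The age of the mice and the part of C3 that is deleted are not stated in what was used here.

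In G1, the origin recognition complex, Cdc6 and Cdt1 load the Mcm2-7 helicase ring onto DNA, and in S phase Cdc45, the GINS complex and Mcm10 switch the ring on. Primase and polymerase alpha start each strand, polymerases delta and epsilon extend it, Pcna holds them on DNA, and Fen1 and Lig1 finish the lagging strand. Many of these genes are transcribed at the G1/S boundary by E2F factors, and in tumours their RNA is widely read as a sign of proliferating cells, which among myeloid cells can include macrophages that divide in place.

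RefSeq promoter windows on GRCm38.p6 (250 bases before and 50 after a start site) were found for 30 of the 36 genes. They were searched on both strands for 4 spellings of the E2F element, TTTCCCGC, TTTGGCGC, TTTCGCGC and TTTGCCGC, which can overlap each other on opposite strands. At least 1 of these was present in a window of 14 of the 30 genes (46.7%; some genes have several windows). It was present in 10 of 40 other replication genes, 1 of 21 mitosis genes (4.76%) and 2.60% of 27025 genes with a window. Genes with at least 2 matches in a window made up 5 of 30 (16.7%), against 0.107% of all genes and 1 of 40 other replication genes (2.50%). The cell cycle homology element that marks many G2/M genes (TTTGAA or TTCGAA) was present in 7 of the 30 genes (23.3%), near the 21.7% of all genes and below 17 of 21 mitosis genes (81.0%). CCAAT was present in 19 (63.3%), against 41.1% of all genes, 18 of 40 other replication genes (45.0%) and 18 of 21 mitosis genes (85.7%). TATAAA was present in 2 (6.67%) against 15.7% of all genes. The sequences below, written 5′ to 3′ on the gene's strand with the matching letters in capitals, show the 2 helicase genes whose matches overlap, then short stretches with a match from other helicase genes (Mcm3 and Mcm7 hold another match outside the stretch shown), origin factors, a polymerase, a clamp loader subunit with a pair of matches (Rfc3), Uhrf1 and E2f2, the gene that ran against all others between the cell types. A match describes letters and does not show that a factor binds there.
Mcm5, chr8:75109288-75109387, plus strand: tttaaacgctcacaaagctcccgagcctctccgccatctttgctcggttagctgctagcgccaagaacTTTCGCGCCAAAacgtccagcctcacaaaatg
Mcm6, chr1:128359725-128359827, minus strand: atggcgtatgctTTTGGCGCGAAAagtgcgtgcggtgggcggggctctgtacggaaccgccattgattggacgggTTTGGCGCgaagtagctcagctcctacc
Mcm3, chr1:20820275-20820304, minus strand: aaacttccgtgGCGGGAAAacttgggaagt
Mcm7, chr5:138172030-138172059, minus strand: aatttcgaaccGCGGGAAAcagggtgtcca
Cdc6, chr11:98908002-98908031, plus strand: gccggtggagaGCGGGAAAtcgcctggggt
Orc1, chr4:108579416-108579445, plus strand: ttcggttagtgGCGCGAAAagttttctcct
Pola1, chrX:93632275-93632304, minus strand: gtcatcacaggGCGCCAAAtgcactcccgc
Rfc3, chr5:151651200-151651229, minus strand: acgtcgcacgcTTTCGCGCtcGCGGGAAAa
Uhrf1, chr17:56304117-56304146, plus strand: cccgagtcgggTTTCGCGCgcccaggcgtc
E2f2, chr4:136172302-136172323, plus strand: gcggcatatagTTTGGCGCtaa

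Levels are given as normalized reads, which are the reads recovered from the deposited values divided by the size factor of the library. Differences are given on the deposited log2 scale and as folds of mean normalized reads. The deposited scale shrinks differences, and not only those of low values. Over the genes described here, the median ratio of log2 read differences to deposited ones was 1.38 for the knockout in macrophages. It was 1.64 for the knockout in monocytes, and 1.41 and 1.43 between cell types in wild type and knockout. The libraries held between 18685901 and 29021604 recovered reads and between 17851 and 19655 detected genes. The targeted gene, C3, lay between 3262 and 4830 normalized reads in wild-type macrophages and between 1077 and 1390 in knockout macrophages. Monocytes of wild-type mice had 14607 to 16131 and those of knockout mice 4624 to 5204, so the groups did not overlap, and reads assigned to C3 remained in every knockout library. Ly6c2 and Adgre1 followed the labels of the sort in direction. Ly6c2, a Ly6C gene, lay between 1.64 and 19.1 normalized reads in macrophages and between 11305 and 19063 in monocytes. Adgre1, which encodes F4/80, lay between 22022 and 28940 in macrophages. It lay between 5448 and 8647 in monocytes, so its RNA was not absent there. Itgax, which encodes CD11c, had 4115 to 6726 in macrophages and 1926 to 4781 in monocytes, although both were sorted as negative for CD11c.

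Between the cell types of the same mice, 35 of the 36 genes were higher in macrophages and 1, E2f2, was higher in monocytes, and this held in wild-type and in knockout mice. The rise of the 35 passed the limma test (Benjamini-Hochberg adjusted p under 0.05) in both genotypes, against 31.7% of 12769 genes higher in macrophages in wild type (63.4% in either direction) and 31.0% of 12772 in knockout (60.5% in either direction). For all 36 genes the 4 macrophage values and the 4 monocyte values of a genotype did not overlap, where 57.6% of all genes were so separated in wild type (29.8% higher and 27.8% lower in macrophages) and 55.2% in knockout (28.6% and 26.7%). The median log2 difference of the 36 genes was 1.30 in wild type and 1.60 in knockout, against -0.01 and 0.00 over all genes tested. In mean normalized reads the median fold was 3.50 in wild type and 4.97 in knockout. These are bulk libraries, so a larger share of dividing cells and more of these RNAs in each cell cannot be told apart.

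Among the licensing genes, Mcm6 was the most abundant per length, at 888 normalized reads per kilobase of exon over the 16 libraries, followed by Mcm3 (750 per kilobase) and Mcm4 (496 per kilobase), all subunits of the helicase ring. Mcm6 (chromosome 1, 128331590 to 128359664, GRCm38) had 6226, 6239, 5683 and 6610 normalized reads in the macrophages of wild-type mice 1 to 4 and 1382, 860, 1314 and 1073 in their monocytes. It had 8276, 8218, 6148 and 9906 normalized reads in the macrophages of knockout mice 6 to 9 and 1090, 1081, 1038 and 1172 in their monocytes. Every macrophage library thus lay above every monocyte library, with log2 differences of 1.73 ± 0.09 (SE; adjusted p = 7.17e-08) in wild type and 2.05 ± 0.09 (SE; adjusted p = 7.00e-09) in knockout. The helicase subunit gene Mcm5 (chromosome 8, 75109569 to 75128439) had 2720, 3072, 2621 and 2985 normalized reads in wild-type macrophages and 713, 497, 646 and 645 in wild-type monocytes, which differed by 1.56 ± 0.07 on the log2 scale (SE; adjusted p = 1.12e-08). Mcm2 (chromosome 6, 88883474 to 88898780), from the same ring, had 2598, 2714, 2344 and 2776 against 531, 393, 647 and 550, a difference of 1.63 ± 0.09 (SE; adjusted p = 6.25e-08). No macrophage value of either gene came near the monocyte values, which were lowest in mouse 2. In knockout mice, Mcm5 lay between 2917 and 4578 normalized reads in macrophages and between 458 and 592 in monocytes, and Mcm2 between 2839 and 4667 and between 397 and 526. Mcm3, at 4252 to 6095 normalized reads in knockout macrophages and 744 to 963 in knockout monocytes, differed there by 1.84 ± 0.08 (SE; adjusted p = 3.76e-09), and Mcm7 by 1.81 ± 0.09 (SE; adjusted p = 6.14e-09). By mean reads the fold in wild type ran from 2.23 in Mcm4 to 5.35 in Mcm6 among the 6 ring subunits.

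The origin and loading factors spread widely. Cdc6, which brings the helicase to the origin, was 5.62 times as high in wild-type macrophages as in monocytes and 8.53 times in knockout. Cdt1, its loading partner, which is known to be controlled mainly by protein destruction, differed least of the 35 genes that were higher: it had 934, 1196, 1107 and 1018 normalized reads in wild-type macrophages and 844, 836, 904 and 820 in monocytes, a log2 difference of 0.23 ± 0.06 (SE; adjusted p = 0.00609). Orc1, the origin recognition subunit whose level changes over the cell cycle, was the lowest of all 36 genes per length, at 16.8 normalized reads per kilobase. In knockout monocytes it had 17.8, 8.44, 7.72 and 7.31 normalized reads against 117, 105, 111 and 110 in the macrophages of the same mice. Orc6, another subunit of the same complex, was 2.03 times as high in macrophages in wild type and 2.57 times in knockout.

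Of the helicase activation genes, Gins1, a GINS subunit and the most abundant of them per length (106 per kilobase), had 282, 242, 239 and 266 normalized reads in wild-type macrophages and 92.6, 57.8, 60.1 and 69.8 in monocytes, a log2 difference of 1.30 ± 0.11 (SE; adjusted p = 1.47e-06). Mcm10, which helps to start the helicase, had 546, 447, 493 and 508 normalized reads in wild-type macrophages and 174, 68.0, 150 and 68.7 in monocytes. The monocyte values split into a higher pair, mice 1 and 3, and a lower pair, mice 2 and 4. In knockout mice Mcm10 lay between 334 and 665 in macrophages and between 40.5 and 66.3 in monocytes, a fold of 10.5. Gins3, also of the GINS complex, had the smallest difference of the group, 0.51 in both genotypes. Reads of Gins2 overlap the gene Gse1 on the other strand over 67.3% of its exon bases, and without strand information they cannot be told apart.

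The polymerase and primase genes had a median log2 difference of 1.64 in wild type and 1.76 in knockout. Pold1, the catalytic subunit of polymerase delta and the most abundant of the 5 per length (276 per kilobase), had 1715, 1969, 1650 and 1886 normalized reads in wild-type macrophages and 556, 579, 691 and 685 in monocytes, a log2 difference of 1.08 ± 0.06 (SE; adjusted p = 8.21e-08). Prim1, the catalytic primase subunit, was 5.09 times as high in wild-type macrophages and 8.48 times in knockout (2.13 ± 0.10, SE; adjusted p = 6.99e-09), while Prim2, its partner, was 2.43 and 2.61 times as high. Pola1 and Pole, catalytic subunits of polymerases alpha and epsilon, were 4.93 and 5.09 times as high in wild-type macrophages.

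The clamp, clamp loader and flap genes had the smallest median difference of the 7 roles, 0.88 in wild type and 1.11 in knockout. Pcna, which also serves DNA repair, had 1684, 1721, 1492 and 1738 normalized reads in wild-type macrophages and 1039, 954, 1034 and 941 in monocytes, a log2 difference of 0.53 ± 0.05 (SE; adjusted p = 3.56e-06). Per length it was the most abundant of its group (562 per kilobase), and its monocyte level was the highest of the 36 genes at 413 per kilobase in wild type and 403 in knockout. Lig1, the ligase that seals lagging-strand fragments, had 1787, 1835, 1636 and 1913 normalized reads in wild-type macrophages and 673, 619, 657 and 573 in monocytes, a log2 difference of 1.08 ± 0.05 (SE; adjusted p = 2.04e-08). Fen1, the flap nuclease, shares 78.8% of its exon bases with an antisense gene, so its modest level (36.5 per kilobase) cannot be separated from that gene.

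Genes of nucleotide supply had some of the widest gaps. Rrm2, the S-phase subunit of ribonucleotide reductase, had 2416, 1980, 1867 and 2158 normalized reads in wild-type macrophages and 473, 268, 361 and 277 in monocytes, a log2 difference of 1.88 ± 0.12 (SE; adjusted p = 3.57e-07). In knockout mice it had 2573, 2352, 1561 and 2624 against 210, 216, 242 and 130, a fold of 11.4 that was the highest of the 36. Within single knockout mice the ratio ran from 6.45 to 20.2. Tk1, thymidine kinase, had the largest difference in wild type (2.01 ± 0.16, SE). Rrm1, the reductase's large subunit, was 3.47 times as high in wild-type macrophages, and Tyms, thymidylate synthase, 3.40 times.

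The chromatin genes Chaf1a and Chaf1b encode the assembly factor that places histones behind the fork, and Uhrf1 carries DNA methylation over to the new strand. Uhrf1 had 1414, 1380, 1278 and 1461 normalized reads in wild-type macrophages and 374, 191, 264 and 182 in monocytes, a log2 difference of 1.76 ± 0.13 (SE; adjusted p = 1.54e-06), and a fold of 9.18 in knockout. Chaf1a was 4.64 and Chaf1b 2.79 times as high in wild-type macrophages, although Chaf1a shares 52.5% of its exon bases with Ubxn6 on the other strand.

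The G1/S genes went in both directions. E2f1, a transcriptional activator at the G1/S boundary and the most abundant of this role per length (330 per kilobase), had 1192, 1313, 1395 and 1334 normalized reads in wild-type macrophages and 643, 632, 757 and 652 in monocytes, a log2 difference of 0.68 ± 0.06 (SE; adjusted p = 1.17e-06). E2f2 (chromosome 4, 136172394 to 136196057), a close relative of E2f1, had 889, 906, 983 and 947 normalized reads in wild-type macrophages and 1618, 1782, 1979 and 1912 in monocytes. In knockout mice it had 1228, 1120, 1061 and 1024 in macrophages and 2210, 1773, 1668 and 1734 in monocytes. Every monocyte library was above every macrophage library, with log2 differences of -0.69 ± 0.05 (SE; adjusted p = 7.13e-07) in wild type and -0.52 ± 0.07 (SE; adjusted p = 4.49e-05) in knockout. It was the only one of the 36 to fall in macrophages, where 31.7% of all genes in wild type and 29.6% in knockout did. The E-type cyclins Ccne1 and Ccne2, which drive S-phase entry with Cdk2, were 4.20 and 5.81 times as high in wild-type macrophages and 7.09 and 10.7 times in knockout.

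**Figure D1:**
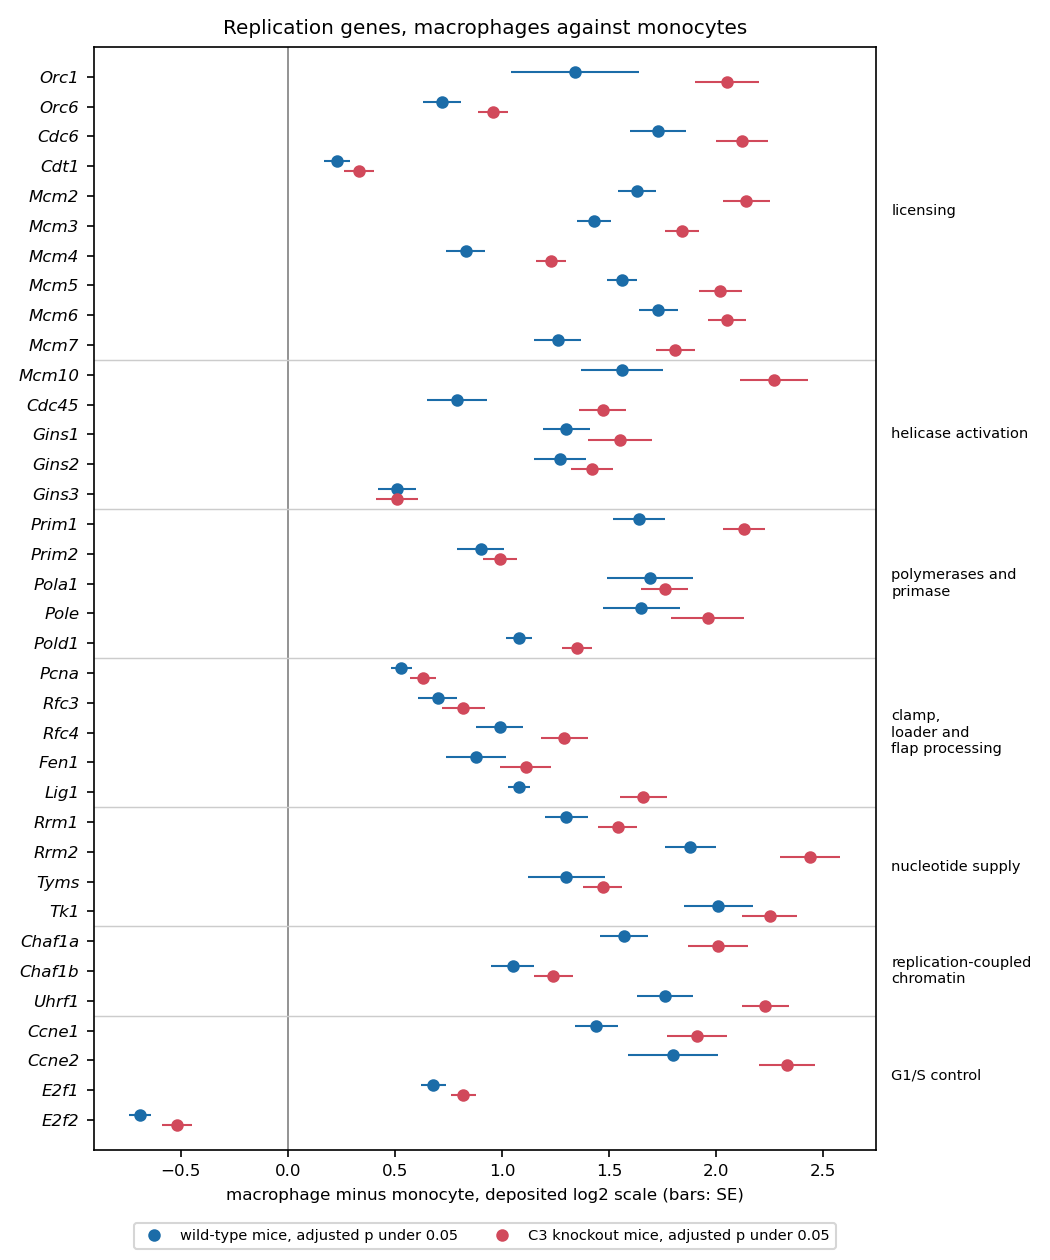
Macrophage minus monocyte difference on the deposited log2 scale (horizontal axis) for each of the 36 genes, ordered by role. Points are limma estimates in wild-type (blue) and knockout (red) mice and bars are SE. All but E2f2 lie above 0 in both genotypes, and Cdt1, Gins3 and Pcna lie nearest to 0 among them.

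Markers of other cells also differed between the cell types. All 5 tested genes of the neutrophil list were called lower in macrophages in both genotypes (medians -3.27 in wild type and -2.87 in knockout). So were all 4 of the red blood cell list (-1.19 and -1.26), against 31.7% and 29.6% of all genes. Of the T and NK cell list 3 of 6 were lower in wild type and 6 of 7 in knockout, with 1 higher in each. The list for granulocyte-monocyte progenitors, 6 genes, summed to 246 to 556 normalized reads in macrophages and 643 to 2075 in monocytes. Its gene Kit went the other way in knockout mice, with a mean of 222 normalized reads in macrophages and 30.4 in monocytes. Cd34 of the same list alone lay between 122 and 530 in macrophages and between 462 and 1622 in monocytes. The sums of the fibroblast and sarcoma list, 10 genes, likewise were 34771 to 63982 in macrophages and 82590 to 139331 in monocytes. Fn1 alone lay between 31777 and 62873 normalized reads in macrophages and between 81192 and 133803 in monocytes. Lum was at or under 3.86 and Col1a1 at or under 30.9 normalized reads in every library. Col3a1, however, reached 4461, Sparc 2174 and Dcn 1297. Fap went the other way, with 16.2 to 52.6 in wild-type macrophages and 2.18 to 5.13 in wild-type monocytes. In knockout mice Fap had 8.47 to 36.3 in macrophages and 0.965 to 4.06 in monocytes.

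In knockout macrophages the differences were small and nearly all on 1 side. Prim2, Mcm4, Prim1 and Mcm3 rose, 4 of 36, against 2.57% of 12568 genes called higher, and none of the 36 fell, against 3.13% (5.70% in either direction). All 36 differences were above 0 (31 without knockout mouse 9), where 50.9% of all genes were, and their median was 0.17 against 0.00 for all genes. In reads the median fold was 1.18, from 1.02 to 1.43. At an unadjusted p under 0.05 there were 15 of the 36 (41.7%), against 20.2% of all genes. By role the median log2 difference was highest for the licensing genes (0.28) and the polymerase and primase genes (0.26), and lowest for nucleotide supply (0.05) and helicase activation (0.07).

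Prim2 (chromosome 1, 33453810 to 33669795), the large primase subunit, had 456, 376, 433 and 470 normalized reads in wild-type macrophages and 588, 565, 605 and 675 in knockout macrophages, a log2 difference of 0.36 ± 0.07 (SE; fold 1.40; adjusted p = 0.00939). Prim1 (chromosome 10, 128015168 to 128030037), the subunit that makes the primer, had 458, 493, 460 and 521 against 610, 632, 551 and 766, a log2 difference of 0.30 ± 0.08 (SE; fold 1.32; adjusted p = 0.0448). In both genes the lowest knockout value was above the highest wild-type value. Mcm4 (chromosome 16, 15623897 to 15637400), a catalytic helicase subunit, had 2297, 2364, 1926 and 2220 normalized reads in wild-type macrophages against 3012, 3049, 2535 and 3471, a log2 difference of 0.33 ± 0.07 (SE; fold 1.37; adjusted p = 0.0182), again without overlap. Mcm3 (chromosome 1, 20802968 to 20820312), another helicase subunit, had 4031, 4052, 3830 and 4352 against 5367, 5427, 4252 and 6095, a log2 difference of 0.28 ± 0.07 (SE; fold 1.30; adjusted p = 0.0491). Here mouse 8 fell inside the wild-type range and the other 3 knockout mice were above it. Across the 36 genes 5 were higher without overlap between groups (Mcm2, Mcm4, Prim1, Prim2 and E2f2), against 6.06% of all genes, and none lower, against 7.03% (13.1% in either direction).

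The remaining helicase subunit genes had values close to the called ones without passing: Mcm2 0.38 ± 0.10 (SE; adjusted p = 0.0635), Mcm7 0.30 ± 0.08 (SE; adjusted p = 0.0517), Mcm5 0.30 ± 0.09 (SE; adjusted p = 0.0952) and Mcm6 0.29 ± 0.09 (SE; adjusted p = 0.119). E2f2 had 0.17 ± 0.05 (SE; adjusted p = 0.0689) and Pold1 0.26 ± 0.07 (SE; adjusted p = 0.0675). Other well-known S-phase genes had values nearer to 0: Pcna 0.07 ± 0.05 (SE), Rrm2 0.07 ± 0.12 (SE), Rrm1 0.02 ± 0.09 (SE), Tk1 0.04 ± 0.11 (SE) and Gins1 0.01 ± 0.11 (SE).

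Among the knockout macrophage libraries, that of mouse 8 had the lowest mean level over the 36 genes. Only 1 of the 36 genes was above the knockout mean in that library, against 34 in mouse 9, 27 in mouse 6 and 22 in mouse 7. Its mean level over the 36 genes was 0.54, inside the wild-type range of 0.52 to 0.64 on the deposited log2 scale, while the other 3 lay between 0.79 and 0.92. Without this library 11 genes rose: Mcm2, Mcm3, Mcm4, Mcm5, Mcm6, Mcm7, Prim1, Prim2, Pold1, Lig1 and Uhrf1, with a median of 0.24 over the 36. Without knockout mouse 7 only Prim2 was called, and without any other single library Prim2 and Mcm4 were. Prim2 was called in 14 of 14 alternatives (adjusted p from 0.00966 to 0.0442) and Mcm4 in 13 (0.00350 to 0.0523). Prim1 was called in 4 (0.0211 to 0.175) and Mcm3 in 3 (0.00208 to 0.124). In the authors' deposited table Mcm4, Prim2, Mcm2, Pold1 and Mcm5 were called.

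**Figure D2:**
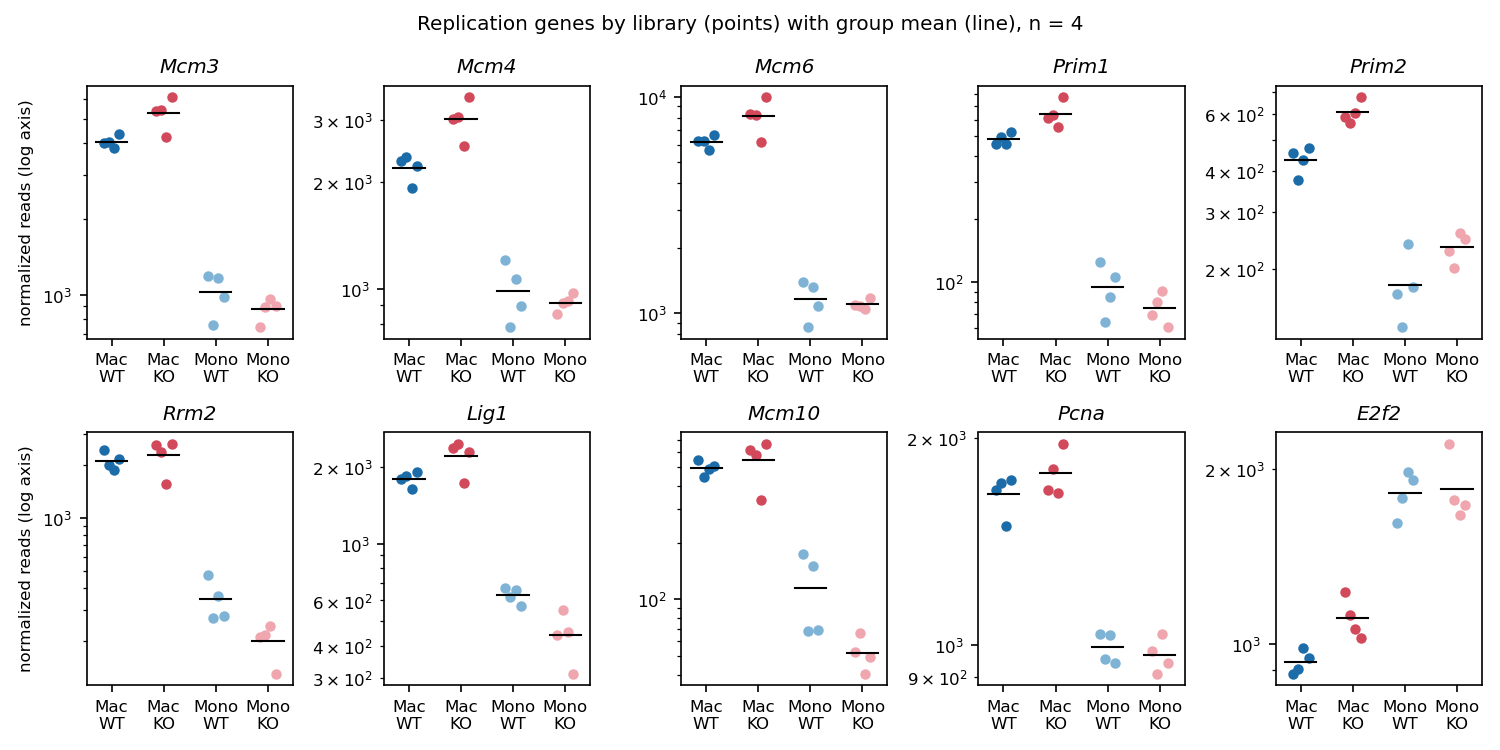
Normalized reads (log axis) of 10 replication genes in each of the 16 libraries, with the group mean as a line (n = 4 libraries per group; Mac macrophages, Mono monocytes, WT wild type, KO C3 knockout). Macrophages exceed monocytes in every gene but E2f2, and in Mcm3 and Mcm6 the lowest knockout macrophage point is mouse 8.

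Marker lists that moved alongside in knockout macrophages were those of red blood cells, where 4 of 4 tested genes fell (summed normalized reads 428 to 1272 in wild type and 145 to 242 in knockout), and of macrophages, where 3 of 8 fell. Of the T and NK cell list 1 of 4 fell, and 1 gene rose in each of the endothelial (of 4), B cell (of 2) and progenitor (of 3) lists, the last being Kit (1.98, adjusted p = 1.01e-04). The fibroblast and sarcoma list had no call among 7 and a median of -0.86. In mouse 8 the mean level of this list was -1.34, the lowest of the 16 libraries. The part of these cells in the results was not tested.

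In knockout monocytes none of the 36 genes was called in either direction, where 1.40% of 12867 genes were higher and 1.92% lower (3.32% in all), and 7 of the 36 (19.4%) had an unadjusted p under 0.05, near the 17.4% of all genes. The median log2 difference was -0.12, against -0.01 for all genes, and 5 of the 36 were above 0 (Gins3, Prim2, Pola1, E2f1 and E2f2). The median was -0.07 without wild-type mouse 3, -0.08 without mouse 1 and -0.19 without mouse 2, and the number above 0 was 10, 9 and 4. In Lig1, Rrm2, Mcm10 and Ccne1 all knockout values lay below all wild-type values, 4 of the 36 against 6.13% of all genes, and the reverse held for none, against 4.97% (11.1% in either direction).

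Lig1 (chromosome 7, 13277283 to 13311433) had the smallest p: 673, 619, 657 and 573 normalized reads in wild-type monocytes and 439, 552, 452 and 311 in knockout, a log2 difference of -0.36 ± 0.10 (SE; fold 0.695; adjusted p = 0.0715). Rrm2 (chromosome 12, 24708241 to 24714146) had 473, 268, 361 and 277 against 210, 216, 242 and 130, a log2 difference of -0.49 ± 0.14 (SE; fold 0.579; adjusted p = 0.0886). In both genes the groups did not overlap. Mcm10 (chromosome 2, 4989714 to 5012791) had 174, 68.0, 150 and 68.7 against 52.6, 66.3, 40.5 and 49.6, a log2 difference of -0.63 ± 0.20 (SE; fold 0.453; adjusted p = 0.123). Its wild-type values rest on mice 1 and 3, and those of mice 2 and 4 sit just above the highest knockout value. Prim2, which rose in macrophages, had 0.27 ± 0.12 (SE; adjusted p = 0.254), and E2f1 and E2f2 each had 0.01.

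The monocyte calls differed between fits. With all 16 libraries in 1 fit, Lig1 (adjusted p = 0.0258), Ccne1 (0.0405), Cdc45 (0.0428) and Rrm2 (0.0473) were lower, and in the authors' deposited table Mcm10, Rrm2, Lig1, Cdc45 and Ccne1 were. Without the monocytes of knockout mouse 7, Lig1 alone was lower (adjusted p = 0.0256). Wild-type monocytes varied more than knockout monocytes: their mean level over the 36 genes ran from -0.79 to -0.39, with mice 1 and 3 the highest, and that of knockout monocytes from -0.78 to -0.71. The progenitor list was also highest in wild-type mice 1 and 3 (sums of 2075 and 1664 normalized reads, against 643 to 1045 in the other 6 monocyte libraries), with 1 of its 4 tested genes, Prtn3, called lower in knockout. In wild-type monocytes Cd34 lay between 488 and 1622 and Prtn3 between 378 and 443, and no other gene of that list exceeded 82.6. The mean level of the list was 1.09 and 1.23 in wild-type mice 1 and 3, and 0.85 and 0.61 in mice 2 and 4. Of the dendritic cell list Cd209a rose in knockout monocytes (3.66, adjusted p = 0.00418) and Itgax fell (-0.53, adjusted p = 0.0386), and the level of the list lay between -0.42 and 0.18 in wild type against 0.41 to 0.93. Retnlg of the neutrophil list rose (2.39, adjusted p = 0.00794), but only 2 of the 5 tested genes of that list were above 0 (median -1.36). S100a8 of the same list, not called, lay between 1289 and 2560 normalized reads in wild type and between 27.6 and 856 in knockout. Kdr of the endothelial list rose (0.82, adjusted p = 0.0106), with 2 of 4 tested genes of the list above 0 (median -0.05). None of 4 genes of the red blood cell list was called (median -1.13). The part of these cells in the monocyte values was not tested.

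**Figure D3:**
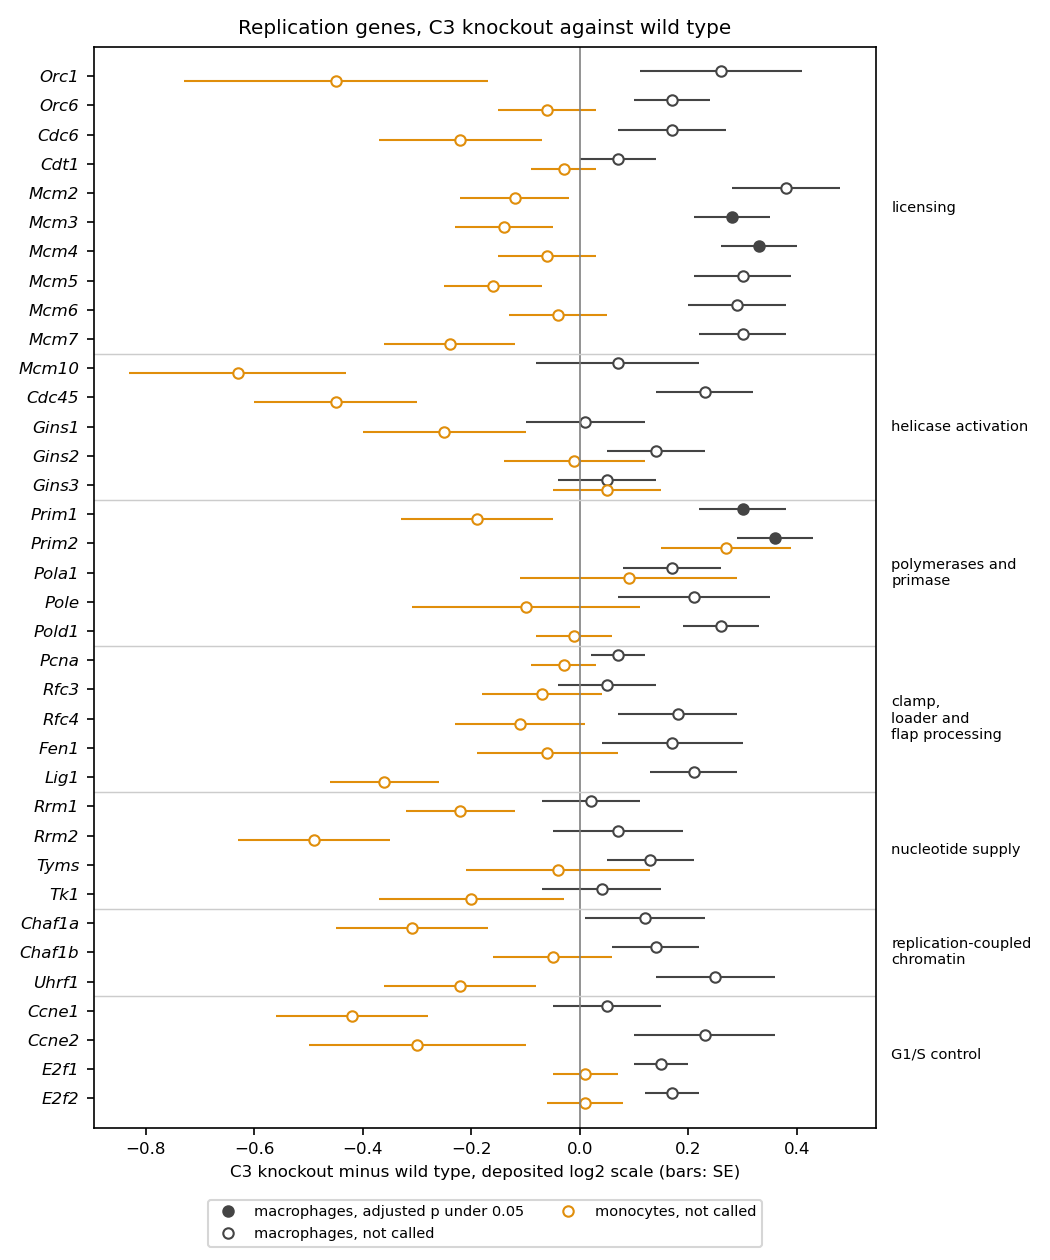
C3 knockout minus wild type on the deposited log2 scale (horizontal axis) for the 36 genes by role, in macrophages (dark) and monocytes (orange). Bars are SE and filled points have an adjusted p under 0.05. All macrophage points are above 0 and 4 are filled, and 31 of the monocyte points are below 0 with none filled.

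Whether the knockout difference itself differed between the cell types was tested with the interaction term over all 16 libraries. None of the 36 was called, where 0.358% of 13134 genes were called higher in macrophages than in monocytes and 0.259% lower (0.617% in all). At an unadjusted p under 0.05 there were 15 of the 36 (41.7%), against 11.4% of all genes. The median difference of effects was 0.30, against 0.01 for all genes, and 35 of 36 were above 0, Gins3 being the exception. The smallest p belonged to Lig1 (0.58 ± 0.13, SE; adjusted p = 0.0578), Cdc45, a core part of the active helicase (0.68 ± 0.19, SE; adjusted p = 0.123), and Mcm7, a helicase subunit (0.55 ± 0.15, SE; adjusted p = 0.135). In macrophages Cdc45 had 407, 366, 339 and 323 normalized reads (wild type) against 428, 465, 363 and 527 (knockout), and in monocytes 238, 123, 195 and 122 against 126, 100, 85.9 and 95.9. Mcm7 had 1964, 1948, 1771 and 2067 against 2794, 2477, 2056 and 2987 in macrophages, and 706, 406, 711 and 495 against 490, 453, 379 and 434 in monocytes. Of their exon bases, 6.0% (Cdc45) and 7.3% (Mcm7) are shared with a gene on the other strand. In both genes the knockout mean was the higher one in macrophages and the lower one in monocytes, with overlap between the genotypes in each. With each mouse as a replicate block, Lig1 (adjusted p = 0.0359) and Cdc45 (0.0412) were called. Lig1 was also called without the macrophages of mouse 8 (0.0165) or the monocytes of mouse 7 (0.0147), Mcm5 without the former (0.0360), and Mcm3 (0.0497) and Mcm7 (0.0376) without the monocytes of wild-type mouse 2.

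The rest of the replication machinery, 47 tested of 49 listed genes, had median differences between cell types of 0.54 in wild type and 0.79 in knockout. Of these, 36 were higher and 4 lower in wild-type macrophages, and 38 and 2 in knockout. In knockout macrophages 7 rose and none fell (median 0.10), led by Cdca7 (0.53, adjusted p = 0.00218), Hells, a chromatin remodeller (0.50, adjusted p = 0.0100), and Donson, a replication fork factor (0.36, adjusted p = 0.0126). The number was 12 without knockout mouse 8, and 4 without a filter or without wild-type mouse 2 or 3 or knockout mouse 7 or 9. In knockout monocytes Gmnn, which encodes the Cdt1 inhibitor geminin, fell (-0.42, adjusted p = 0.0332), and the list had no call without a filter, without any wild-type mouse or without knockout mouse 9. Of 18 other G1/S regulators Ccnd1 (1.01, adjusted p = 7.85e-04) and Ccnd2 (0.34, adjusted p = 0.00112), both D-type cyclins that act with Cdk4 and Cdk6, rose in knockout macrophages. Ccnd1 averaged 2126 normalized reads in wild-type and 5403 in knockout macrophages. In monocytes none of these 18 was called.

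Genes that restrain S-phase entry were mixed. Of 12 tested, 4 were higher and 8 lower in wild-type macrophages than in monocytes, with Samhd1, which breaks down nucleotides (-1.25, adjusted p = 4.62e-09), and Cdkn2d (-1.30, adjusted p = 8.38e-09) among the lower and the Cdk4 and Cdk6 inhibitor gene Cdkn2c (1.22, adjusted p = 9.16e-06) among the higher. None was called in knockout macrophages (1 was without knockout mouse 6 or 8), and 3 fell in knockout monocytes: Cdkn1b, a Cdk inhibitor gene (-0.37, adjusted p = 0.0230), Rbl2, a pocket protein gene (-0.30, adjusted p = 0.0285), and Btg2 (-0.37, adjusted p = 0.0476). That number was 0 without a filter or without wild-type mouse 4 or knockout mouse 8 or 9, 1 without wild-type mouse 1 or 3 or knockout mouse 6, and 5 with all 16 libraries in 1 fit or in the authors' deposited table.

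Of the mitosis genes 23 of 23 were higher in macrophages in both genotypes (medians 1.54 and 2.03), against 31.7% of all genes in wild type and 31.0% in knockout. In knockout macrophages none of 23 was called (5.70% of all genes were), 6 were above 0 and the median was -0.05. In knockout monocytes all 23 were below 0 and the median was -0.57. Nusap1, Bub1b and Bub1 fell there, 3 of 23 against 1.92% of all genes. An unadjusted p under 0.05 was reached by 19 of 23 (82.6%) in monocytes, against 17.4% of all genes. In macrophages none reached it, against 20.2%. Without overlap between groups 8 of 23 were lower in monocytes, against 6.13% of all genes. The monocyte calls numbered 0 without knockout mouse 9, 1 without knockout mouse 8 or wild-type mouse 1 (median -0.36 without the latter), 19 in the authors' deposited table (median -1.05) and 6 when all 16 libraries were fitted together. In macrophages the median was 0.06 with 19 of 23 above 0 without knockout mouse 8, and 0.01 with 14 above 0 without wild-type mouse 1, so its sign changed with 1 library. The difference between the 2 lists was not tested.

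**Figure D4:**
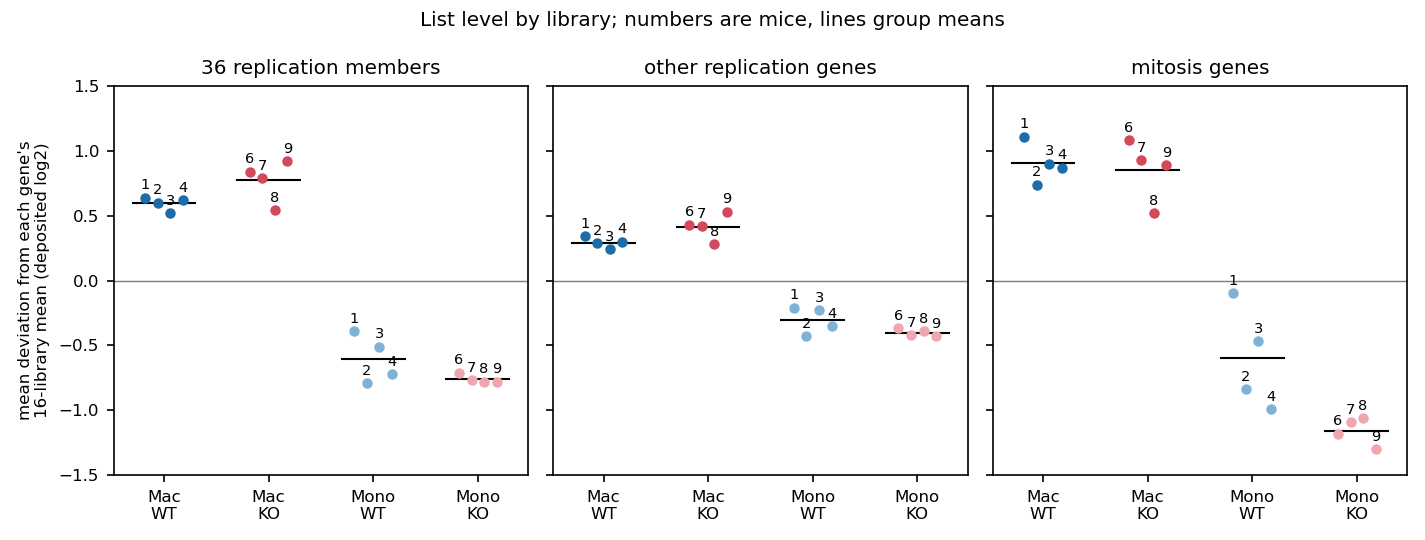
Mean deviation from each gene's 16-library mean (deposited log2 scale, vertical axis) per library for the 36 genes, the other replication genes and the mitosis genes, with mouse numbers and group means as lines. Knockout macrophages of mice 6, 7 and 9 lie above all wild-type macrophages for the 36 genes and mouse 8 does not, and wild-type monocytes of mice 1 and 3 lie highest among monocytes for all 3 lists.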

How the data were processed

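RNA of 16 sorted samples was sequenced from SMART-Seq v4 libraries made from 5 ng of RNA. That kit does not mark strand. The build GRCm38 and the tools STAR 2.7.2b, bcl2fastq 2.19.0.316 and DESeq2 are named in the submitters' processing notes, without roles, and no annotation is named. Expression comes as a deposited matrix of log2 values by the authors, which followed a regularized logarithm, although no header names the transform. Per the file headers, the authors' deposited tables of wild type against knockout hold a base mean (a signal: mean reads divided by size factors), log2 fold changes and standard errors, a test statistic (a score), and p-values. Their direction was turned here to knockout minus wild type. The matrix held 0 columns of other samples.

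The transform was inverted to recover reads. A whole read lay within 0.05 of 80.7% of values over 20443 genes (base mean 1 or more), and of 35.8% above a base mean of 1000. The mean matched the authors' base mean within 1% for 99.9% of genes. The recovery and the fits were tested on simulated data. From a base mean of 100 the recovery took the dispersion from a fitted trend, and its simulated test did not cover that step. This step applies to all of the 36 genes but Orc1 and Fen1.

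As the files hold log2 values and not counts, limma 3.58.1 (R 4.3.3, trend and robust) was fitted to the log2 values, for genes with a linear value of at least 10 in at least 4 libraries, each comparison with its own 8 libraries and the interaction with all 16. The threshold was an adjusted p of 0.05 (Benjamini-Hochberg over all genes tested). These fits had no block. Each mouse supplied a macrophage and a monocyte library, and its number therefore pairs them. Correlations of deviations from group means ran from 0.0306 to 0.417 within a wild-type mouse and from 0.0517 to 0.211 within a knockout mouse, and from -0.323 to 0.188 and from -0.227 to 0.136 between mice. P-values measure the spread between mice. Exact permutation of 4 against 4 cannot go below p = 0.0286. Normalized reads carry counting error of their own at low levels, as in Orc1.

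The genes and lists were chosen with earlier results of these data known. Genes given per library are at most 4 called in each direction and comparison (else the 3 with the smallest p) and the gene of each role with the most normalized reads per kilobase, a reading of the rule's highest level made after the values were seen (by plain reads it names Mcm10, Rrm1 and E2f2 for Gins1, Rrm2 and E2f1). Extremes of a range, and genes called under alternatives, were named after their values were seen. Of other lists at most 3 called genes per direction are named. Exon lengths and overlaps are from GENCODE M21. Alternatives were other filters, TMM scaling, all libraries in 1 fit, a mouse block, leaving out each library, the authors' table and, chosen after seeing the data, voom with limma on recovered reads.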

Additional observations from a re-analysis of the deposited data

How the results depend on the processing

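The 35 higher genes and E2f2 between cell types were called in the same numbers under 14 of 14 alternatives in each genotype. The median difference of the 36 genes was 1.88 (TMM scaling) and 1.90 (voom) in wild type and 2.36 and 2.38 in knockout. For the difference of knockout effects it was 0.43 and 0.44. These scales do not shrink differences as the deposited one does. The number of genes of the 36 called higher in knockout macrophages was 2 without a filter and 1 to 11 leaving out single libraries. The number called lower in knockout monocytes was 4 with all 16 libraries in 1 fit, 5 in the authors' deposited table and 0 to 1 leaving out single libraries. With the mouse as a replicate block the difference of knockout effects had 2 of the 36 genes called and 251 of all genes (81 without it), and the pairing changed no other call of the 36. Leaving out single libraries gave 0 to 2. Over all genes, knockout macrophages had 717 calls (458 to 656 leaving out single libraries). Knockout monocytes had 427 (237 to 459 leaving out single libraries, 981 with all 16 libraries in 1 fit, 1329 in the authors' deposited table), and the difference of effects 48 to 125 leaving out single libraries. The cause of these shifts was not tested. When 1 library was left out, signs turned for 7 of the 36 genes in knockout macrophages (Ccne1, Gins1, Gins3, Mcm10, Rfc3, Rrm1 and Tk1), 11 in knockout monocytes (Chaf1b, E2f1, E2f2, Gins2, Mcm4, Mcm6, Orc6, Pola1, Pold1, Pole and Tyms), 3 in the difference of effects (Gins3, Pola1 and Prim2) and 0 between cell types. In knockout macrophages Gins1 ranged from -0.05 to 0.11 (-0.01, -0.02, -0.03 and -0.05 leaving out wild-type mouse 2 or 3, or knockout mouse 7 or 9). In knockout monocytes E2f1 ranged from -0.01 to 0.05 (-0.00 leaving out mouse 1, -0.01 mouse 2, 6 or 8), Mcm6 from -0.13 to 0.02 (0.02 and 0.01 leaving out mouse 1 or 3) and Pold1 from -0.04 to 0.03 (0.03 and 0.02 leaving out mouse 3, or mouse 4 or 6). TMM scaling moved the median of all genes by under 0.1 in each comparison. The planned edgeR and DESeq2 fits were not run, and voom with limma on the recovered reads was run instead. Depth limits Orc1 and other genes with few reads in monocytes.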
